A study of Mus musculus with 27 samples.

Results

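The 9 genes described here control how the liver takes up, burns, makes and releases glucose: *Slc2a2*, *Gckr*, *Pfkfb1*, *Pklr*, *Pck1*, *Fbp1*, *G6pc*, *Tat* and *Igfbp1*. They were taken by gene symbol from the 17655 genes listed in the deposited tables, a rule that uses no measured value. All 9 were listed in every table and passed the filter on low counts in all 17 comparisons. The RNA came from whole liver of *Kdm5b* fl/fl mice, with 27 libraries in 9 groups of 3 mice. WT mice had received a control AAV8 vector. KO mice had received AAV8-CMV-Cre, whose promoter is not specific to one cell type, and HepKO mice AAV8-TBG-Cre, whose promoter is active in hepatocytes. All mice were fed a Western diet with alcohol (WDA), and no group was kept off alcohol throughout. WDA groups had received the vector and then 8 weeks of WDA, and held WT and KO mice of both sexes and HepKO females. Resolution (Res) groups had 16 weeks of WDA, the control or CMV-Cre vector, and 4 weeks of resolution, and held WT and KO mice of both sexes. The labels give no ages. WDA and Res mice came from separate experiments. The paper's results and figure legends describe resolution mice as biopsied at the end of WDA and then placed on chow. For the vector experiments they give a longer time on WDA than the 16 weeks of the labels. The labels name neither biopsy nor chow. The end of alcohol, the diet change, any biopsy, the feeding length, the timing of the vector and the experiment therefore cannot be told apart.

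Hepatocytes both consume and produce glucose, and the balance is set at a few one-way steps. After a meal, insulin favours glycolysis and holds back the genes of glucose production. During fasting, glucagon and glucocorticoids favour glucose production from lactate, glycerol and amino acids. The liver is the main organ that releases glucose into the blood, and fat and alcohol both alter this balance.

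On the uptake and glycolysis side, *Slc2a2* (gene ID 20526, GRCm38.p6 chromosome 3, 28697903 to 28728361, plus strand) encodes GLUT2, the main glucose transporter of hepatocytes. *Gckr* (231103, chromosome 5, 31297266 to 31327302, plus strand) encodes the protein that binds and inhibits glucokinase in the nucleus. *Pfkfb1* (18639, chromosome X, 150587445 to 150643878, plus strand) encodes the liver enzyme that makes and breaks down fructose 2,6-bisphosphate, an activator of phosphofructokinase. *Pklr* (18770, chromosome 3, 89136122 to 89146815, plus strand) encodes the pyruvate kinase of liver and red cells, the last step of glycolysis. On the side of glucose production, *Pck1* (18534, chromosome 2, 173153073 to 173159274, plus strand) encodes the cytosolic phosphoenolpyruvate carboxykinase. *Fbp1* (14121, chromosome 13, 62864753 to 62888298, minus strand) encodes fructose-1,6-bisphosphatase. *G6pc* (14377, chromosome 11, 101367716 to 101377903, plus strand) encodes the catalytic subunit of glucose-6-phosphatase, which frees glucose for export. *Tat* (234724, chromosome 8, 109986078 to 109999804, plus strand) encodes tyrosine aminotransferase, a classic glucocorticoid-induced enzyme of amino acid breakdown. *Igfbp1* (16006, chromosome 11, 7197787 to 7202546, plus strand) encodes a secreted binding protein for insulin-like growth factors whose gene is repressed by insulin.

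Promoters of 4 of the genes are shown because 2 of them, *Slc2a2* and *Fbp1*, passed the test between the stages with all mice, while *Igfbp1* and *G6pc* are textbook targets of insulin repression. Each is read 5′ to 3′ along the strand of its gene, from 250 bases before to 50 after the RefSeq start (GRCm38.p6). The positions are chr3:28697653-28697952 (plus), chr13:62888233-62888532 (minus), chr11:7197537-7197836 (plus) and chr11:101367466-101367765 (plus), in the order printed. Capitals mark matches to the letters searched on both strands.
Slc2a2: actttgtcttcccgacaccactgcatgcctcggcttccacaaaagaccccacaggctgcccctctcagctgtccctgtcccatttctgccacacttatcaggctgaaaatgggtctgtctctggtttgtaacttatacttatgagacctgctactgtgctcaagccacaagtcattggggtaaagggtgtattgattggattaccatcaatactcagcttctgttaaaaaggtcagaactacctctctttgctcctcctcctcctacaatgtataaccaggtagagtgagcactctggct
Fbp1: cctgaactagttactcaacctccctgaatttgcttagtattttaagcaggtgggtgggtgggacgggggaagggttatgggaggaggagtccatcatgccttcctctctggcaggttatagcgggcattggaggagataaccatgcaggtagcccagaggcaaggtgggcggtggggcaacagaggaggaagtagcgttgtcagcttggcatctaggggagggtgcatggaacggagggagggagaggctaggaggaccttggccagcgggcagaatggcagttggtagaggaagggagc
Igfbp1: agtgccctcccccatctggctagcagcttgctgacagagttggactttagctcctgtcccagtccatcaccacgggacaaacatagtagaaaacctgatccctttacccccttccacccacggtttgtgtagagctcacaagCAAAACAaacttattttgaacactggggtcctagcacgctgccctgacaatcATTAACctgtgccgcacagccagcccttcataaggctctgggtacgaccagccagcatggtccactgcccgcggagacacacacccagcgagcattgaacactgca
G6pc: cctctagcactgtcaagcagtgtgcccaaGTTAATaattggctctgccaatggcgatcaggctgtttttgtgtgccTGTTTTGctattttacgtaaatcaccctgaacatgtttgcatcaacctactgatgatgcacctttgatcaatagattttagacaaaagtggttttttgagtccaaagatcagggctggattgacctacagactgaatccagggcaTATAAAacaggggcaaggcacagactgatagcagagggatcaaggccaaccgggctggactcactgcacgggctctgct
The letters of an HNF1 half-site (GTTAAT) were found in the promoters of 5 of the 9 genes (*Gckr*, *Pfkfb1*, *G6pc*, *Pck1* and *Igfbp1*) and in 7.1% of 32851 promoters of the same length. The letters of the insulin response element (TGTTTTG) were found in 3 of 9 (*Gckr*, *G6pc* and *Igfbp1*) and in 6.28% of all promoters. The letters of a TATA box (TATAAA) were found for *Pklr* (first base at -31), *Pfkfb1* (-193) and *G6pc* (-29), and in 13.6% of all promoters. The letters of the glucocorticoid half-site (AGAACA) were found for *Gckr*, on each strand, and in 19% of all promoters. In the 2 other promoters printed, *Slc2a2* and *Fbp1*, none of the letters searched occurred, which says only that these letters are not in this window. The forkhead site (TGTTTAC), E-box (CACGTG), cAMP response element (TGACGTCA), C/EBP site (TTGCGCAA) and HNF4 site (CAAAGTCCA) matched in none of the 9 genes. *Pklr* has 2 and *Pfkfb1* 4 promoters in the table, and a gene was counted once if any of its promoters matched. The percentages count single promoters, so the bases differ.

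The libraries held 14634602 to 19388251 estimated counts. Levels are given as CPM, the count of a gene scaled to a fixed library size with TMM factors, which correct each library for differences in makeup. In the 15 females the 4 Y-linked marker genes summed to 0.349 to 2.15 CPM and in the 12 males to 88.8 to 157.7 CPM. The targeted gene *Kdm5b* ranged from 16.6 to 31 CPM in WT, from 7.89 to 24.3 in KO and from 8.28 to 17.6 in HepKO mice. Within each sex and stage the KO mean CPM was the lower one, but none of these differences reached an adjusted p of 0.05 (edgeR). In WDA males the order depended on the measure, with a mean deposited FPKM of 3.68 in KO and 3.55 in WT mice. Counts over the whole gene do not show whether the floxed part was removed. *Kdm5b* was also lower in Res than in WDA mice (-0.57 ± 0.10 on the log2 scale, adjusted p = 0.000421). The 5 hepatocyte markers found summed to 71620 to 165900 CPM, so the liver label held in every library.

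Some libraries stood apart from their group mates. WT WDA female mouse 7 had 460.3 CPM of the 5 cholangiocyte markers and 376 CPM of the 6 stellate and scar markers. KO WDA male mouse 17 had 520.7 and 427 CPM. The other 13 WDA mice had 16.3 to 103.6 and 39.8 to 127 CPM, and the 12 Res mice 19 to 237.8 and 44.2 to 148 CPM. *Krt7* and *Krt19*, which define cholangiocytes, were each at 0 in 1 mouse, and most of the sum was *Spp1* (12.3 to 474 CPM), which macrophages also express. KO Res male mouse 5 had 669 CPM of 6 female-biased transcripts, chosen after the data were seen, against 0.366 to 29.1 CPM in the other 11 males and 17.9 to 2822 CPM in females. Within the Res groups, WT female mouse 13 (237.8 CPM of cholangiocyte markers), KO male mouse 5 (199 CPM) and WT male mouse 9 (154 CPM) lay above their group mates (27.1 to 35.4 CPM). Their stellate and scar markers summed to 148, 112 and 115 CPM, and their scaling factors were 1.23, 1.11 and 1.09. Leaving out any one of these 3 Res mice ended the call of *Pklr* over 24 mice and no other call of the 9 genes. The *Pklr* call was lost in 18 of the 24 refits without 1 mouse, so its loss is not particular to these 3. In bulk RNA, fewer hepatocytes and less RNA per hepatocyte cannot be told apart.

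The livers of mice 7 and 17 held less of 7 of the 9 transcripts, on both the glycolysis and the glucose production side, and more *Igfbp1* than the others of their groups. *Slc2a2* was 0.44 times the mean of its group mates in mouse 7 and 0.42 times in mouse 17. *Pklr* was at 0.35 and 0.31 times, *G6pc* at 0.45 and 0.48 times, *Fbp1* at 0.58 and 0.54 times, *Pck1* at 0.7 and 0.53 times, and *Igfbp1* at 3.9 and 2.51 times. Both mice lay outside the range of their 2 group mates for all 9 genes, and *Tat* was higher in mouse 7 (1.83 times) and lower in mouse 17 (0.6 times). A range set by 2 mice is narrow, and the share of all genes outside it was not counted. The count is therefore no result about the 9 genes. The scaling factors of these libraries were 1.37 and 1.32, above the highest of the other 25 (1.23). Without scaling factors the ratios of the 7 lower genes were nearer to 1, at 0.61 for *Slc2a2* in both mice, and at 0.97 in mouse 7 and 0.77 in mouse 17 for *Pck1*. *Igfbp1* in both mice and *Tat* in mouse 7 moved further from 1 without the factors, to 5.42, 3.64 and 2.53 times. The part of the other cell types in these values was not tested. The plot of levels against summed cholangiocyte markers shows both mice at the right edge.

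**Figure D1:**
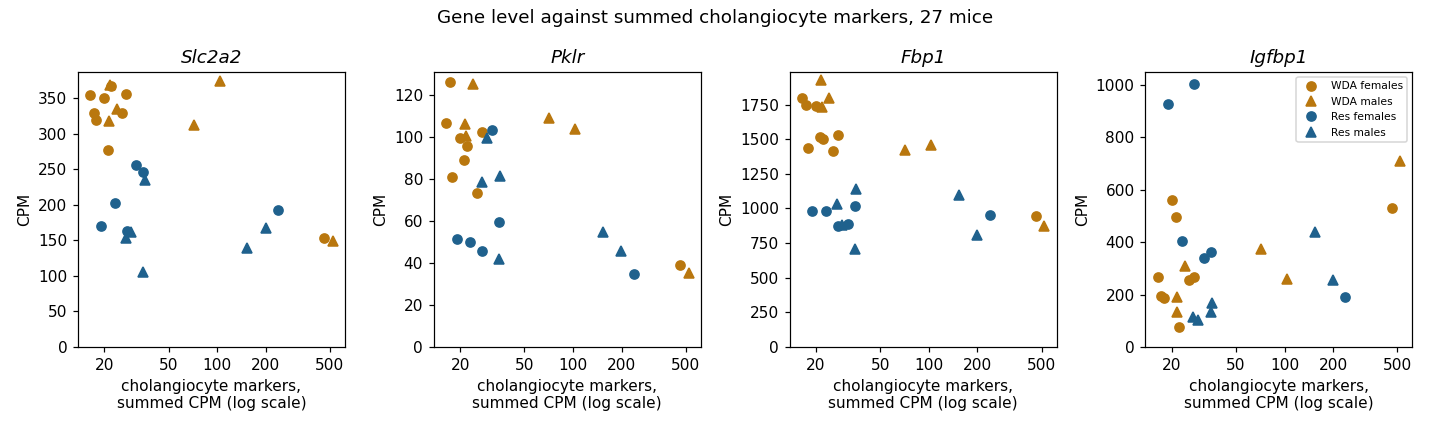
Level (CPM, vertical axis) of 4 genes in each of 27 mice against the summed CPM of 5 cholangiocyte markers (horizontal axis, log scale). Ochre marks WDA and blue Res mice, circles females and triangles males. The 2 rightmost points in each panel are WDA mice 17 and 7, at 520.7 and 460.3 CPM of markers.

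Per unit of transcript length, the genes spanned a wide range. By the median of deposited FPKM over 27 mice, *Pck1* was highest (1455), followed by *Fbp1* (1037), *Tat* (783), *G6pc* (363) and *Igfbp1* (211). *Slc2a2* (115), *Gckr* (49.4), *Pklr* (34.2) and *Pfkfb1* (12.6) were lower. Genes of glucose production and *Tat* held the top 4 places, and those of uptake and glycolysis the last 4. *Igfbp1* varied most between mice, with the highest CPM 12.8 times the lowest, and *Gckr* least, at 2.52 times. In the order of the 9 group means of each gene, neighbouring groups overlapped in all but 2 places. WT WDA males lay above WT Res males in *Pfkfb1* and KO Res females above WT Res females in *Tat*. Among 9764 genes with a mean log2 CPM of at least 2, 37.3% did not overlap between those male groups. Between those female groups it was 27.2%. Such neighbours were not counted over all genes, so the 2 places are no result about the 9 genes.

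**Figure D2:**
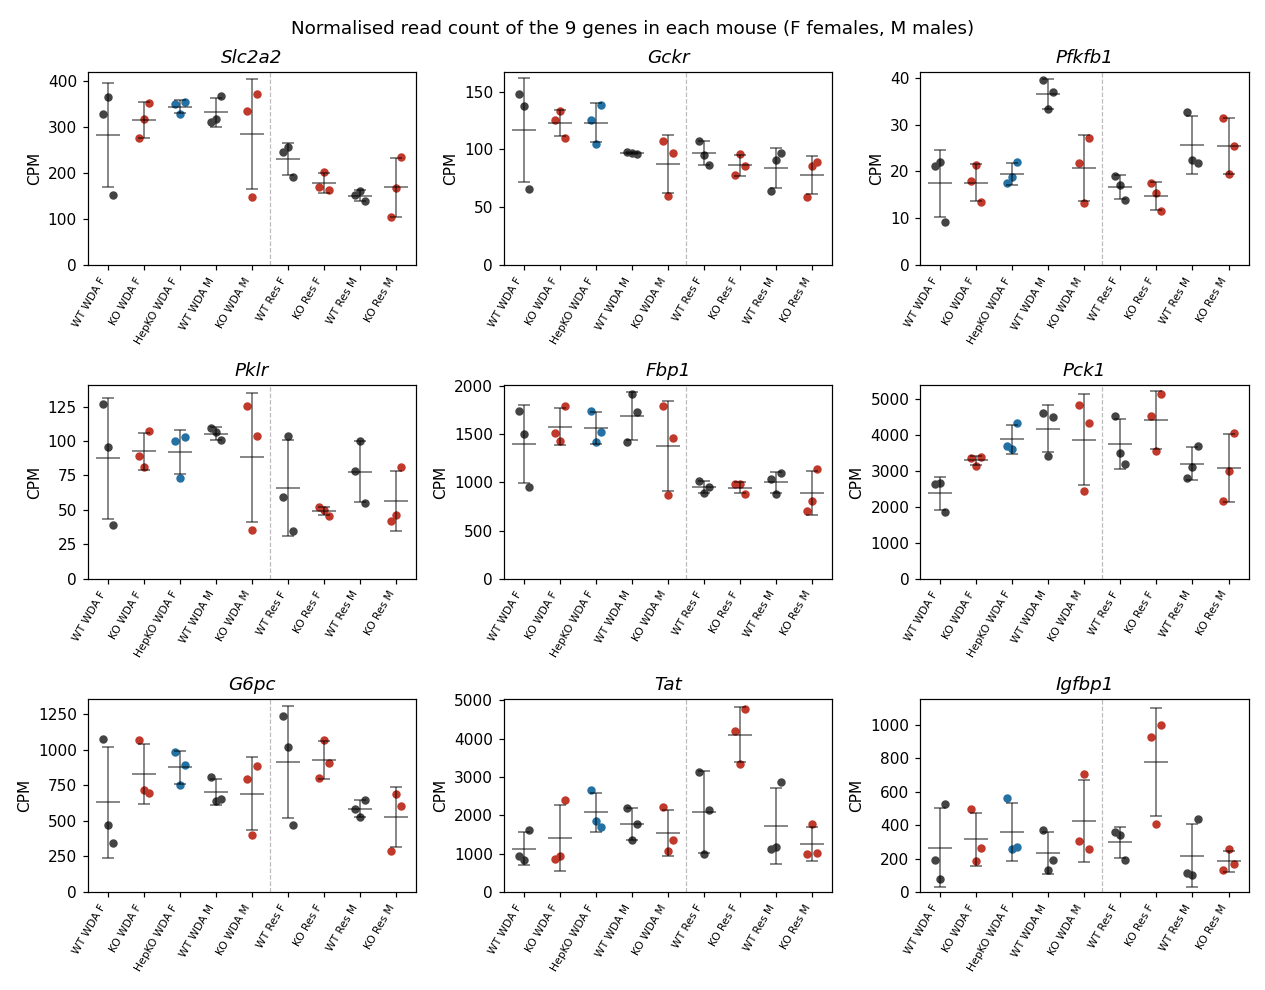
CPM of each gene (vertical axis) in every mouse, by vector, stage and sex (F, female; M, male). Points are mice (dark grey WT, red KO, blue HepKO), horizontal lines the group mean and bars ± SD (n = 3), and the dashed line divides WDA from Res groups. *Slc2a2* and *Fbp1* sit lower on the Res side apart from WDA mice 7 and 17, and *Tat* and *Igfbp1* are highest in KO Res females.

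Resolution was compared with WDA over 24 WT and KO mice, fitting the 8 groups as separate means. *Fbp1*, *Slc2a2* and *Pklr* fell. Of all 13519 genes tested, 29.8% had an adjusted p under 0.05 (edgeR, quasi-likelihood, Benjamini-Hochberg over all genes), and 3 of the 9 genes did, all lower in Res mice. As a share, 3 of 9 was close to that of all genes. The summed hepatocyte markers had 85880 to 165900 CPM in Res mice and 78460 to 112000 CPM in WDA mice other than 7 and 17. Most of the sum was *Alb* (54150 to 141900 CPM over 27 mice). *Alb* and *Apoa1* were highest in a Res mouse, and *Ttr*, *Serpina1c* and *Cps1* in WDA mice. In WT males the sum was 90360 to 96330 CPM in WDA and 85880 to 111700 CPM in Res mice. The part of these markers in the results was not tested. The median log2 fold change of the 9 genes was -0.14 against 0.00 over all genes.

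*Fbp1*, which removes the phosphate from fructose 1,6-bisphosphate, had 871 to 1925 CPM in the 12 WDA mice (median 1508) and 705 to 1142 CPM in the 12 Res mice (median 967). In 10 WDA mice the level was above that of every Res mouse, and the 2 that did not were mice 7 and 17. Its log2 fold change was -0.67 ± 0.12 (SE, adjusted p = 0.000464), a ratio of 0.63. Without mice 7 and 17 it was -0.78 ± 0.09 (adjusted p = 3.47e-06, chosen after the data were seen). In that refit 43.9% of 13515 genes passed, against 29.8% with all mice.

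*Slc2a2* had 149 to 373 CPM in WDA mice (median 324) and 106 to 256 CPM in Res mice (median 169). Again 10 WDA mice lay above all 12 Res mice. The log2 fold change was -0.76 ± 0.16 (adjusted p = 0.00145), a ratio of 0.59, and -0.90 ± 0.10 without mice 7 and 17. Both genes kept an adjusted p under 0.05 in all 24 refits that left out 1 mouse.

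*Pklr* had 35.1 to 126.6 CPM in WDA mice (median 102) and 34.7 to 103 CPM in Res mice (median 53.3), so the stages overlapped, with 6 WDA mice above every Res mouse. The log2 fold change was -0.61 ± 0.21 (adjusted p = 0.0389), a ratio of 0.66. The call was lost in 18 of 24 refits without 1 mouse, with an adjusted p of up to 0.0893. Without mice 7 and 17 it was -0.78 ± 0.16 (adjusted p = 0.000727), where 43.9% of all genes passed.

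The other 6 genes did not pass the test over the 24 mice. *Gckr* was at -0.30 ± 0.12 (adjusted p = 0.08) and reached -0.42 ± 0.08 (adjusted p = 0.000681) without mice 7 and 17, where 43.9% of all genes passed. *Tat* was at 0.52 ± 0.23 (adjusted p = 0.0998). *Pck1* (0.09 ± 0.13), *G6pc* (0.00 ± 0.20), *Igfbp1* (0.04 ± 0.32) and *Pfkfb1* (-0.14 ± 0.15) had adjusted p-values of 0.518 to 0.99. *G6pc*, the last step before export, had 348 to 1077 CPM in WDA mice (median 706) and 289 to 1239 CPM in Res mice (median 669), with wide overlap. *Tat* passed without KO WDA female mouse 3, WT WDA female mouse 7 or WT Res female mouse 12 (adjusted p = 0.0278, 0.0414 and 0.0476).

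Within KO females, 6 of the 9 genes passed the test, against 20.4% of 12470 genes (2550, and 1026 without KO Res mouse 4). With the spread estimated in one fit of 27 mice, *Fbp1* and *Tat* kept their calls, and *Pklr* (adjusted p = 0.173), *Slc2a2* (0.0851), *Gckr* (0.205) and *Igfbp1* (0.189) lost them in edgeR. *Pklr* had 80.9, 89.3 and 106.9 CPM in WDA and 45.6, 50.02 and 51.7 CPM in Res mice, with no overlap. Its log2 fold change was -0.89 ± 0.13 (adjusted p = 0.00264). *Slc2a2* had 276, 319 and 354 CPM in WDA and 164, 170.0 and 202 CPM in Res mice, also without overlap (-0.80 ± 0.13, adjusted p = 0.00437). *Fbp1* had 1434, 1514 and 1798 CPM against 877, 979 and 984 CPM (-0.72 ± 0.13, adjusted p = 0.00565). *Gckr* had 110.2, 125 and 133 CPM against 77.6, 85.9 and 95.8 CPM (-0.48 ± 0.12, adjusted p = 0.0214). These 4 genes were lower in all 3 Res mice than in all 3 WDA mice. The *Gckr* call was lost without KO WDA mouse 2 or without KO Res mouse 2 or 4 (adjusted p of 0.0622 to 0.0789).

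The glucocorticoid-induced *Tat* rose in KO females. It had 873, 942 and 2410.0 CPM in WDA and 3339, 4189 and 4771 CPM in Res mice, with no overlap, and a log2 fold change of 1.56 ± 0.35 (adjusted p = 0.0151), a ratio of 2.96. Insulin-repressed *Igfbp1* had 188, 266 and 494 CPM in WDA and 406, 925 and 1002 CPM in Res mice. The groups overlapped by 1 mouse each, and the log2 fold change was 1.32 ± 0.38 (adjusted p = 0.037), a ratio of 2.5. That call was lost without KO WDA mouse 2 or 3, without KO Res mouse 2 or 4 (adjusted p of 0.096 to 0.128) and in DESeq2 (adjusted p = 0.0713). *Tat* lost its call only without KO Res mouse 4 (adjusted p = 0.0579). *Pck1* had 3139, 3354 and 3387 CPM against 3554, 4536 and 5147 CPM, without overlap, but the test gave 0.44 ± 0.15 (adjusted p = 0.0644). It passed in DESeq2 (adjusted p = 0.0284) and without KO Res mouse 3 (adjusted p = 0.0302). The hepatocyte markers summed to 140000.0 to 165900 CPM in KO Res females and to 85990 to 108000 CPM in KO WDA females, and their part in these values was not tested. Of 9764 genes with a mean log2 CPM of at least 2, 41.9% had no overlap between these 2 groups.

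In WT males *Slc2a2* and *Fbp1* passed, 2 of 9 genes against 11% of 12408 genes. The 1361 genes behind that share became 106, 203 and 339 without WT WDA mouse 21, 20 or 19 and 501 without WT Res mouse 8. Without WT Res mouse 7 or 9 they became 1122 and 1685. *Slc2a2* had 311, 318 and 368 CPM in WDA and 139, 153 and 161 CPM in Res mice (-1.12 ± 0.10, adjusted p = 0.00239), a ratio of 0.46. *Fbp1* had 1420.0, 1729 and 1925 CPM against 883, 1034 and 1095 CPM (-0.73 ± 0.15, adjusted p = 0.0224). *Pfkfb1* and *Pklr* also did not overlap between these groups, at -0.51 ± 0.16 (adjusted p = 0.0788) and -0.43 ± 0.18 (adjusted p = 0.149). Of the 9764 genes, 37.3% did not overlap there. DESeq2 also called *Pfkfb1* (adjusted p = 0.0444), as did edgeR without WT Res mouse 7 (adjusted p = 0.0217). The *Fbp1* call was lost without WT WDA mouse 20 or 21, without WT Res mouse 8 (adjusted p of 0.0689 to 0.103), without scaling factors (adjusted p = 0.064) and in one fit of 27 mice (adjusted p = 0.0886).

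No gene of the 9 passed in WT females or KO males, where 0% of 12603 and 0% of 12747 genes did in edgeR, with 1716 and 819 genes at an unadjusted p under 0.05. Without mouse 7 and mouse 17 respectively, 15 and 10 genes were called. In WT females 1 of the 9 had an unadjusted p under 0.05, *Pck1* (0.64 ± 0.27), whose 3188, 3511 and 4524 CPM in Res mice lay above 1851, 2625 and 2656 CPM in WDA mice. In KO males it was *Igfbp1* (-1.20 ± 0.43, adjusted p = 0.682), with 132, 168 and 255 CPM in Res and 258, 307 and 709 CPM in WDA mice. Of the 9764 genes, 22% did not overlap between the stages in WT females and 14.1% in KO males. Each of these comparisons holds a library that stood apart, and without mouse 7 the *Pck1* value was 0.49 (adjusted p = 0.233) and without mouse 17 the *Igfbp1* value was -0.62 (adjusted p = 0.412). DESeq2 called 0 of the 9 in both comparisons and 347 and 79 of all genes.

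**Figure D3:**
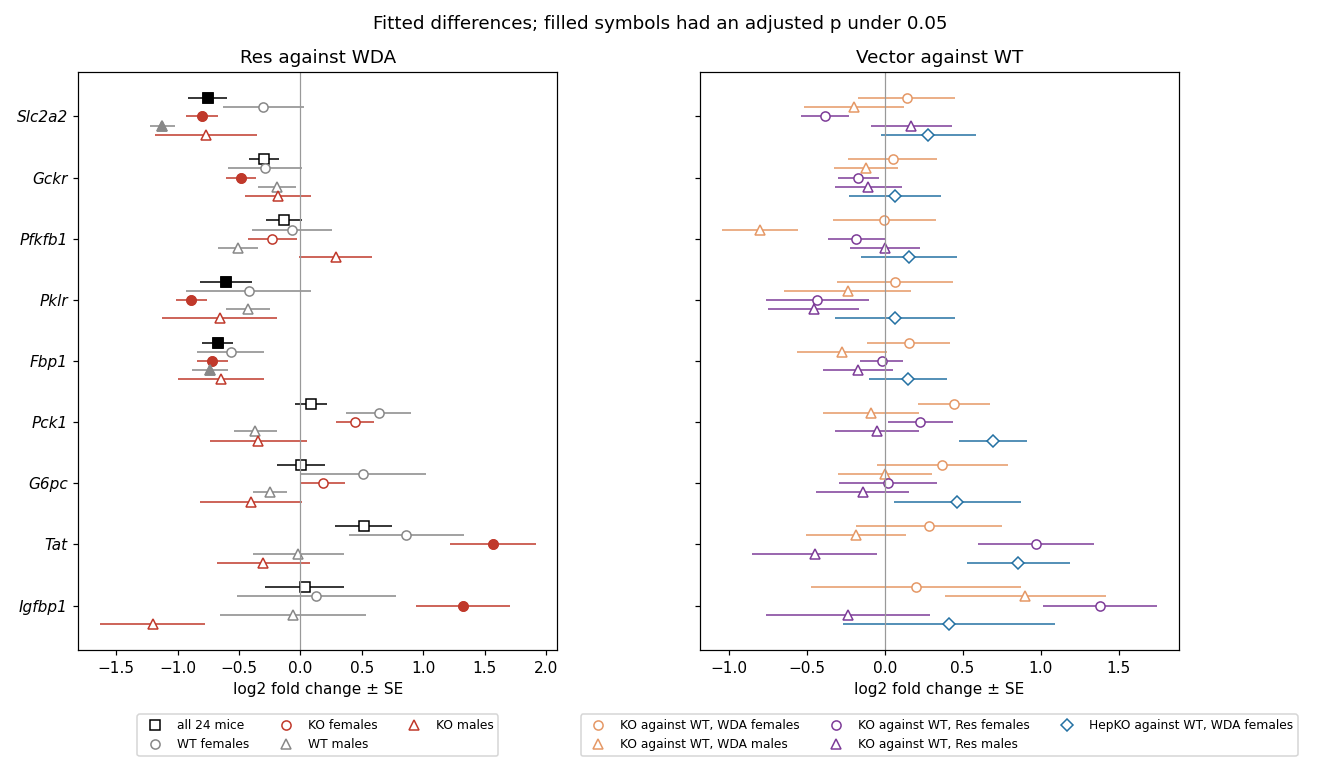
Fitted log2 fold changes ± SE (horizontal axis) of the 9 genes. Left, Res against WDA in 24 mice and by vector and sex; right, KO or HepKO against WT by stage and sex; filled symbols had an adjusted p under 0.05 (edgeR). *Slc2a2* and *Fbp1* lie below 0 in all 5 stage comparisons, and no symbol is filled on the right.

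The stage effect was compared between sexes and vectors by interaction terms. In the difference between males and females 0.118% of 13519 genes passed, and none of the 9 did in edgeR. The 16 genes behind that share became 67 without mouse 17 and as few as 1 without single other mice. An unadjusted p under 0.05 was found for 3 of the 9 genes, and for 956 of all genes (7.07%). *Pck1* differed by -0.91 ± 0.26 (adjusted p = 0.237), *Tat* by -1.39 ± 0.47 (adjusted p = 0.361) and *Igfbp1* by -1.39 ± 0.64 (adjusted p = 0.685), all with a lower stage effect in males. DESeq2 called *Pck1* (adjusted p = 0.0364), and edgeR did so without mouse 17 (adjusted p = 0.0497). In the difference between KO and WT mice 0% of 13519 genes passed, 433 had an unadjusted p under 0.05, and the 9 genes all had an adjusted p of 0.9999. DESeq2 called 0 genes there. The different counts of calls in KO and WT mice are therefore not shown to be a difference between the vectors.

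KO mice were compared with WT mice at each stage. None of the 9 genes passed in any of the 6 comparisons in edgeR, and neither did any other gene, at 0% of 12895 genes (WDA mice of both sexes), 0% of 13178 (Res mice of both sexes), 0% of 12397 (WDA females), 0% of 12419 (WDA males), 0% of 12577 (Res females) and 0% of 12620 (Res males). In the same order, 407, 1374, 385, 958, 2413 and 183 genes had an unadjusted p under 0.05, and DESeq2 called 5, 66, 8, 13, 592 and 2. Without WT Res female mouse 1, edgeR called 852 genes in Res females and 129 in Res mice of both sexes, but none of the 9. Among the 9 genes, 3 had an unadjusted p under 0.05 in Res females, 1 in WDA males and 0 in the others.

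In Res females, *Igfbp1* had 406, 925 and 1002 CPM in KO and 190.2, 340.4 and 360.4 CPM in WT mice, so that all KO mice lay above all WT mice. The log2 fold change was 1.38 ± 0.36 (unadjusted p = 0.00529, adjusted p = 0.123). *Tat* had 3339, 4189 and 4771 CPM in KO and 997, 2128 and 3121 CPM in WT mice, again without overlap (0.97 ± 0.37, adjusted p = 0.217). *Slc2a2* had 164, 170.0 and 202 CPM in KO and 192, 246 and 256 CPM in WT mice, which overlapped (-0.38 ± 0.15, adjusted p = 0.234). DESeq2 called *Igfbp1* (adjusted p = 0.00209) and *Tat* (adjusted p = 0.0492). In this comparison 27.2% of the 9764 genes did not overlap. The hepatocyte markers summed to 97770 to 153800 CPM in WT Res females, against 140000.0 to 165900 CPM in KO, and their part was not tested.

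In Res males the same genes had log2 fold changes of -0.24 ± 0.53 for *Igfbp1*, -0.45 ± 0.40 for *Tat* and 0.17 ± 0.26 for *Slc2a2*. The KO effect in males minus that in females was -1.63 ± 0.75 for *Igfbp1* (adjusted p = 0.433) and -1.43 ± 0.61 for *Tat* (adjusted p = 0.402), where 0% of 13178 genes passed in edgeR, 1512 had an unadjusted p under 0.05 and DESeq2 called 81. Without WT Res female mouse 1 edgeR called 241 genes. Leaving out 1 mouse moved the values from -1.97 to -0.62 for *Igfbp1* and from -1.85 to -0.86 for *Tat*. The values nearest 0 were without WT Res male mouse 9 (adjusted p = 0.624 and 0.515), and without KO Res male mouse 5 they were -1.93 and -1.76. In WDA mice only *Pfkfb1* in males had an unadjusted p under 0.05. It had 13.2, 21.7 and 27.2 CPM in KO and 33.2, 37 and 39.5 CPM in WT males, without overlap (-0.80 ± 0.25, adjusted p = 0.588), and was at -0.57 without mouse 17 (adjusted p = 0.307). Of the 9764 genes, 17.3% did not overlap between these males.

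HepKO females on WDA were compared with WT and KO females. No gene passed against WT in edgeR, at 0% of 12413 genes, while 1249 had an unadjusted p under 0.05 and DESeq2 called 204. Without WT mouse 7, 349 genes passed. *Pck1* had 3612, 3692 and 4347 CPM in HepKO and 1851, 2625 and 2656 CPM in WT mice (0.70 ± 0.22, adjusted p = 0.392). *Tat* had 1703, 1853 and 2668 CPM against 825, 946 and 1616 CPM (0.86 ± 0.33, adjusted p = 0.471). Neither gene overlapped between the groups, as for 19.6% of the 9764 genes. Without WT mouse 7 both were called, at 0.55 (adjusted p = 0.0313) and 1.23 (adjusted p = 0.0112), and DESeq2 with all mice called *Pck1* (adjusted p = 0.031). Against KO females 0.0162% of 12351 genes passed and none of the 9 in edgeR, in DESeq2 or at an unadjusted p under 0.05. *Pck1* was at 0.24 ± 0.11 (adjusted p = 0.884) and its 3139, 3354 and 3387 CPM in KO females lay below the HepKO values. Of the 9764 genes, 10.35% did not overlap between HepKO and KO females.

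Males were compared with females over the same 24 mice. *Pfkfb1* was the only one of the 9 genes to pass, against 11.3% of 13519 genes. It had 13.2 to 39.5 CPM in the 12 males (median 26.3) and 9.17 to 22 CPM in the 12 females (median 17.3), and 8 males lay above every female. The log2 fold change was 0.68 ± 0.15 (adjusted p = 0.00493), a ratio of 1.6, and it passed in all 24 refits without 1 mouse (adjusted p up to 0.0126). *Gckr* was at -0.27 ± 0.12 (adjusted p = 0.179). It was called without scaling factors (-0.37, adjusted p = 0.0216), without mouse 7 (-0.35, adjusted p = 0.0249) and without mice 7 and 17 (-0.29, adjusted p = 0.0221). In these 3 settings 1711, 1725 and 2033 of all genes passed, against 1526. *G6pc* was at -0.38 ± 0.20 (adjusted p = 0.246) and *Igfbp1* at -0.57 ± 0.32 (adjusted p = 0.296).

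Other genes of the pathways were counted from lists written for this tissue. Over the 24 mice, 59 of 140 genes tested passed in the stage comparison, 19 higher and 40 lower in Res mice, against 29.8% of all genes, with a median log2 fold change of -0.06. In gluconeogenesis 9 of 19 passed, 8 of them lower, and in glycolysis 11 of 23, 9 of them lower. In fructose use 4 of 6 passed, all lower. Among glucocorticoid and amino acid genes 7 of 14 passed, 6 of them higher. In glycogen use 8 of 16 passed, 6 of them lower, and in the pyruvate and pentose list 6 of 12, 5 of them lower. Among genes of binding proteins for insulin-like growth factors 3 of 8 passed, 2 of them higher. In insulin and glucagon signaling 6 of 21 passed (28.6%) and among transcription factors 6 of 23 (26.1%), with 3 higher and 3 lower in each. These 2 shares were below that of all genes.

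The genes of the lists with the highest log2 fold changes among those that passed were *Sult1e1* (estrogen sulfotransferase, 2.14 ± 0.49), *Fkbp5* (a glucocorticoid receptor co-chaperone, 1.56 ± 0.17), *Pdk4* (which inhibits pyruvate dehydrogenase, 1.29 ± 0.23), *Per1* (a clock gene, 1.06 ± 0.23) and *Aldoc* (aldolase C, 1.03 ± 0.25). The lowest were *Trib3* (a stress-induced pseudokinase, -1.94 ± 0.38), *Ppp1r3g* (a glycogen targeting subunit, -1.64 ± 0.47), *Slc2a5* (a fructose transporter, -1.12 ± 0.32), *Srebf1* (a driver of lipogenesis, -1.06 ± 0.25) and *Pck2* (the mitochondrial carboxykinase, -1.05 ± 0.25). Their adjusted p-values were 4e-06 to 0.0129. In KO females *Fkbp5* (1.91 ± 0.36) and *Sult1e1* (1.88 ± 0.34) were highest and *Trib3* (-2.43 ± 0.72) and *Ppp1r3c* (-1.55 ± 0.30) lowest, and 50 of 138 genes passed, against 20.4% of all genes. In WT males 25 of 138 passed, against 11% of all genes, with *Fkbp5* (1.44 ± 0.16) and *Tkfc* (0.81 ± 0.18) highest and *Ugp2* (-1.13 ± 0.12) and *Slc25a25* (-1.13 ± 0.29) lowest. Between the sexes 15 of 140 passed, against 11.3% of all genes. *Slc2a5* (1.51 ± 0.32) and *Taldo1* (0.34 ± 0.07) were higher in males and *Pdk4* (-1.84 ± 0.23) and *Srebf1* (-1.28 ± 0.25) higher in females. In the difference between sexes of the stage effect 1 of 140 passed, *Klf10* (-1.42 ± 0.25), against 0.118% of all genes.

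Some of the 9 genes also varied together from mouse to mouse within groups. Over 27 mice, with group means subtracted from log2 CPM, 3 of 36 pairs had an adjusted p under 0.05 (two-sided permutation within groups). *Pklr* and *Slc2a2* had r = 0.85 (permutation p = 0.0006, adjusted p = 0.0112; Spearman's rho = 0.82, permutation adjusted p = 0.009). *Gckr* and *G6pc* had r = 0.73 (permutation p = 0.00062, adjusted p = 0.0112; rho = 0.66, adjusted p = 0.0198). *Gckr* and *Pck1* had r = 0.73 (permutation p = 0.0023, adjusted p = 0.0276; rho = 0.71, adjusted p = 0.0252). In the WDA experiment alone r was 0.92, 0.78 and 0.81, in the Res experiment 0.71, 0.69 and 0.65, and without the 2 mice farthest from the median 0.73, 0.65 and 0.64. All genes of a mouse share its scaling factor, and the share of such pairs among other genes was not counted. Without scaling factors r was 0.71, 0.59 and 0.58, and 0 of 36 pairs had an adjusted p under 0.05 (lowest 0.0504, permutation test, chosen after the data were seen). *Igfbp1* had its lowest r with *Pfkfb1* (-0.56, permutation adjusted p = 0.0936) and lay below -0.3 with *Slc2a2*, *Pklr*, *Fbp1* and *Gckr* too. Without the 2 mice farthest from the median these 5 values ran from -0.38 to 0.03, and in the Res experiment alone from -0.33 to 0.39.

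**Figure D4:**
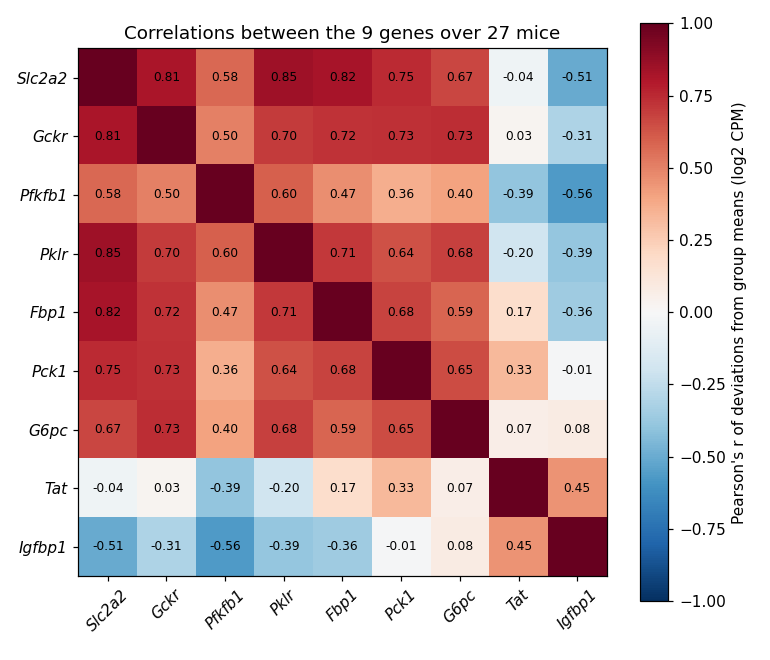
Pearson's r between the 9 genes (both axes) over 27 mice, from log2 CPM with group means subtracted; red is positive and blue negative. Slc2a2, Gckr, Pklr, Fbp1, Pck1 and G6pc all have positive r with each other, and the highest r is 0.85 between Pklr and Slc2a2. Of all 36 pairs, 3 had an adjusted p under 0.05 (permutation within groups), and 0 did without scaling factors. In the Res experiment alone, r among these genes ran from 0.20 (Pklr and Fbp1) to 0.74 (G6pc and Slc2a2). All of these genes were lower in WDA mice 7 and 17 than in their group mates.

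Of 9755 other genes with a mean log2 CPM of at least 2, those whose log2 CPM followed each gene most closely over the 27 mice, group differences included, were taken as a description. For *Fbp1* they were *Vdac1* (r = 0.95) and *Txn2* (0.93), for *Slc2a2* *Cryz* (0.94) and *Xylb* (0.93), for *Gckr* *Rnf167* (0.91) and *Faah* (0.89), and for *Pklr* *Scly* and *Aqp9* (0.90 each). For *Pck1* they were *Klf15* (0.88) and *Slc38a4* (0.85), for *Pfkfb1* *Serpina12* (0.87) and *Gphn* (0.86), and for *G6pc* *Fzd8* and *Slc47a1* (0.79 each). For *Igfbp1* they were *Btg2* (0.83) and *Mnt* (0.82), and for *Tat* *Plk3* and *Atf4* (0.83 each). These values share the libraries, the depth and the scaling factors.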

How the data were processed

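RNA was taken from whole livers, with 3 individual mice per group. The authors sequenced the libraries on BGISEQ and, as the study's methods state, aligned reads with HISAT to GRCm38.p6 and with Bowtie2 to reference genes. They deposited estimated (expected) counts per gene and FPKM, and 7.34% to 8.09% of the estimated counts were not whole, so they were rounded. The counter and its version are not given in the sources used here. No value columns were left unmapped. The totals give the depth, and CPM of the 9 genes rested on 208 to 92331 counts per mouse.

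Genes absent from a table were counted as 0. Counts were tested in edgeR 4.0.16 (R 4.3.3) by the quasi-likelihood test on group means, with TMM scaling, filterByExpr (minimum count 10) and Benjamini-Hochberg adjustment over all genes tested. This replaced the authors' DESeq2, which was run (1.42.0, Wald test) as an alternative, as were other scalings, no filter, 1 fit of 27 mice and leaving out each mouse. Each fit used only the groups of its comparison. The self-test ran on simulated data. The deposited FPKM were used, without a test, only to compare levels between genes and for *Kdm5b* in WDA males.

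All 9 genes were described in every comparison. From the pathway lists, up to 5 genes on each side were named over the 24 mice and 2 in other comparisons. The genes and lists were chosen with earlier results of these data known. The female-biased transcripts and the omission of mice 7 and 17 were chosen after the data were seen. Correlations used 100000 permutations and log2 CPM with a prior count of 2. Promoters and positions came from RefSeq (GRCm38.p6), which matched all 9 genes.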

Additional observations from a re-analysis of the deposited data

How the results depend on the processing

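With TMM replaced by RLE scaling, or with no filter on low counts, none of the 17 counts of the 9 genes called changed by over 1.5 times. Leaving out 1 mouse moved the count of the 9 genes called over the 24 mice in the stage comparison from 3 to between 2 and 5, with 5 without WT WDA female mouse 7, in WT males from 2 to between 1 and 3 (1 without WT WDA male mouse 20 or 21 or WT Res male mouse 8), and in KO females from 6 to between 3 and 7 (3 without KO Res mouse 4). It also moved HepKO against WT from 0 to between 0 and 2, males against females from 1 to between 1 and 2 (both without WT WDA female mouse 7), and the difference between sexes in the stage effect from 0 to between 0 and 1 (without KO WDA male mouse 17). Without scaling factors 1 of the 9 genes was called in WT males and 2 between the sexes. One fit of 27 mice called 1 in WT males and 2 in KO females. DESeq2 called 2 genes in KO against WT Res females, 1 in HepKO against WT and 1 in the difference between sexes in the stage effect. Without mice 7 and 17 males against females gave 2. The cause was not tested. The 31 log2 fold changes followed through the alternatives were those with an unadjusted p under 0.05 in the main edgeR fit. None of them changed sign, which that choice made likely.

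Without scaling factors, the calls over all genes were 587 higher and 227 lower in WT males across stages (619 and 742 with TMM), 934 and 1699 in KO females (1273 and 1277) and 352 and 1359 in males against females (716 and 810). The median log2 fold change of all genes then reached 0.16 in WT males and -0.11 between the sexes. One fit of 27 mice called 840 genes in WT females, 308 in WT males, 1558 in KO females, 102 in KO males and 670 in KO against WT Res females, where the fits of 6 mice called 0, 1361, 2550, 0 and 0. In the difference between sexes in the stage effect DESeq2 called 99 genes, that fit 39 and library totals 6, against 16. DESeq2 called 40 genes in HepKO against KO, against 2. No paired analysis was possible because the mouse numbers do not mark shared animals or litters. The p-values weigh a difference between groups against the spread of the 3 mice within each group, which edgeR estimates with help from all genes. Between the stages they do not cover variation between the separate experiments.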
